A study of Homo sapiens with 192 samples.

Results

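Eph receptors and ephrins were examined in the colorectal cancer cell lines HT29, LS513, HCT116 and LS174T. The 10 members were chosen by name and matched by Ensembl identifier: the receptors EPHA1, EPHA2, EPHA4, EPHB3 and EPHB4 and the ligands EFNA1, EFNA3, EFNA4, EFNB1 and EFNB2. They are 10 of the 58243 identifiers in the count tables and 10 of the 22 human Eph and ephrin genes, and all 10 were among the 19387 genes that passed the filter on low counts. EPHA4 passed it through LS513, HCT116 and LS174T, since HT29 had at most 3 counts of it in a library.

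The data are poly(A) RNA-Seq counts from untreated lines grown in 2D, as a layer, or in 3D, with 3 libraries in each of the 8 groups of line and growth condition. No transgene, deletion or agent is named in the labels of these 24 libraries. Each group is 1 established line, and HCT116 was kept in McCoy medium where the other 3 lines were kept in DMEM, so line and medium cannot be told apart for HCT116. The methods describe low attachment plates for the spheroids of the growth assays and do not give the time in culture of the RNA samples. The labels number the libraries of a group without saying whether they came from separate cultures, so p-values measure the spread between these libraries.

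Library totals were between 18723942 and 34277421 counts, and 3 counts, used here as the floor of detection, stood for 0.0853 to 0.164 CPM, the count scaled to the size of the library. Outside EPHA4 in HT29, each member had between 51 and 16057 counts in a library. Of 10 colon epithelial markers, 8 to 10 were over the floor in all libraries of each group, with a summed level of 3322 to 18002 CPM. HCT116 had at most 0.0653 CPM of CDX1 and CDH17, both defining markers of colon epithelium, and had the other 8 over the floor. Of these, VIL1 was low in HCT116, at most at 0.294 CPM, and KRT20 was at most at 2.89 CPM. Of the 5 endothelial markers, at most 2 were over the floor in all libraries of a group and their summed level stayed at or under 3.19 CPM, with CDH5 at most at 0.166 CPM. Fibroblast markers summed to at most 22.1 CPM, nearly all of it COL1A1 in HCT116, and leukocyte markers to at most 17.7 CPM, most of it CD14 in HT29, with at most 2 counts of PTPRC in a library. In HT29 that sum was 6.85 to 8.05 CPM in 2D and 12.8 to 17.7 CPM in 3D, and its part in the HT29 results was not tested. The 3D library of LS174T replicate 2 stood apart from the other 3D libraries of its line, with a TMM scaling factor of 0.9334 against 1.042 and 1.062, and it was the highest or lowest of the 3 by a margin for EPHA1, EPHA2, EPHB3, EFNA4, EFNB1 and EFNB2. Without it the number of members called for growth in LS174T was still 3, and the log2 differences of EPHA2, EFNB1 and EFNB2 in LS174T, none of them called, changed sign to -0.046, 0.087 and 0.066.

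Eph receptors are the largest family of receptor tyrosine kinases, and their ligands, the ephrins, are also held in the cell membrane, so that signaling takes place where cells touch. Ephrin-A ligands are anchored by a lipid and mostly bind EphA receptors, whereas ephrin-B ligands span the membrane, mostly bind EphB receptors and can signal backwards into their own cell. In the intestine, EphB receptors are Wnt target genes of the crypt base and ephrin-B ligands are found towards the villus or the surface, and this opposition keeps cells in their place along the crypt.

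The sequences before the start of 4 members are shown because these members carried the growth results below. EFNA1 was the member called higher in 3D in all lines, EFNA3 is its neighbour on chromosome 1, and EFNB2 and EPHB3 moved in opposite directions in HT29 and LS513. The RefSeq bases are on GRCh38.p14, read 5′ to 3′ on the strand of the gene, and end at the base before the first exon. Capitals mark matches to the core of the hypoxia response element, ACGTG or GCGTG on either strand. For EFNA1 only the 25 bases around the match are given, since the annotation places the window in the first exon of a longer transcript.
EFNA1, chr1:155127637-155127661, plus strand: cacaaagctcCACGCagacccacaa
EFNA3, chr1:155078587-155078836, plus strand: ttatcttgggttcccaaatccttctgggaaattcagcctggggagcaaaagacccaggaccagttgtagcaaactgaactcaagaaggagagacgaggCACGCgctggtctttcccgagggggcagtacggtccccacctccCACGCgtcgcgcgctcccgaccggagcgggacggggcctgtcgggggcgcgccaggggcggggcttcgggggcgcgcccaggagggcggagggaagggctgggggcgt
EFNB2, chr13:106535663-106535912, minus strand: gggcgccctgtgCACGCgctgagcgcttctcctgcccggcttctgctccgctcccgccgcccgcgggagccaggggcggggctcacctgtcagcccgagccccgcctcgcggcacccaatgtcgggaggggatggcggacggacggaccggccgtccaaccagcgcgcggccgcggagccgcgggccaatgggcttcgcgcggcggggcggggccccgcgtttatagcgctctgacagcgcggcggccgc
EPHB3, chr3:184561535-184561783, plus strand: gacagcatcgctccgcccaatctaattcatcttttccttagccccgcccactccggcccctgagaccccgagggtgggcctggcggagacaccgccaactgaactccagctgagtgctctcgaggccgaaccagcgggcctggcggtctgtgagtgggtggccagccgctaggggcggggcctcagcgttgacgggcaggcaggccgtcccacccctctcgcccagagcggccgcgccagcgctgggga

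In the 250 bases before the start, EFNA1 held 1 match to the hypoxia core, EFNA3 held 2, EFNB2 held 1 and EPHB3 held none. The core is short and was present in 43.2% of 35116 RefSeq windows of the same length, and in 7 of the 10 members (EPHA2, EPHA4, EPHB4, EFNA1, EFNA3, EFNB1 and EFNB2). The core of the TCF site, CTTTGAT or CTTTGTT on either strand, was in 6.6% of the windows and in none of the members' windows. With no TCF match in these windows, no match to either motif overlapped the other. The matches describe these letters only and were not tested for binding.

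Levels of different genes were compared per length, as CPM per kb of merged exons. The leading member differed between the lines. In HT29 it was EFNB1, an ephrin-B ligand, with 88.9 ± 5.77 CPM per kb in 2D and 97.5 ± 3.20 CPM per kb in 3D (SD, n = 3). The receptor EPHA2 followed with 83.7 ± 8.81 and 53.6 ± 4.38 CPM per kb, and in 2D it was not separated from EFNB1 beyond their spread. In LS174T the leading member was the receptor EPHB3, with 73.9 CPM per kb in 2D and 103 CPM per kb in 3D. In HCT116 it was EPHA2, with 31.6 and 34.2 CPM per kb. LS513 had EPHB3 first in 2D, at 65.5 ± 2.58 CPM per kb. In 3D it had EFNB1 first, at 51.8 ± 5.06 CPM per kb, close to EPHA2 at 48.0 ± 2.18 CPM per kb. EPHB3 stood sixth there, at 31.1 ± 9.73 CPM per kb. EFNB2, EFNA3 and EPHA1 were close to it, at 32.7, 32.3 and 30.5 CPM per kb. EPHA4 was the lowest of the 10 in every group. The same members came first when the length of the longest transcript was used, but lower places changed. In HT29 in 3D, EPHB4 then passed EPHA2, at 56.8 against 56.2 CPM per kb.

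**Figure D1:**
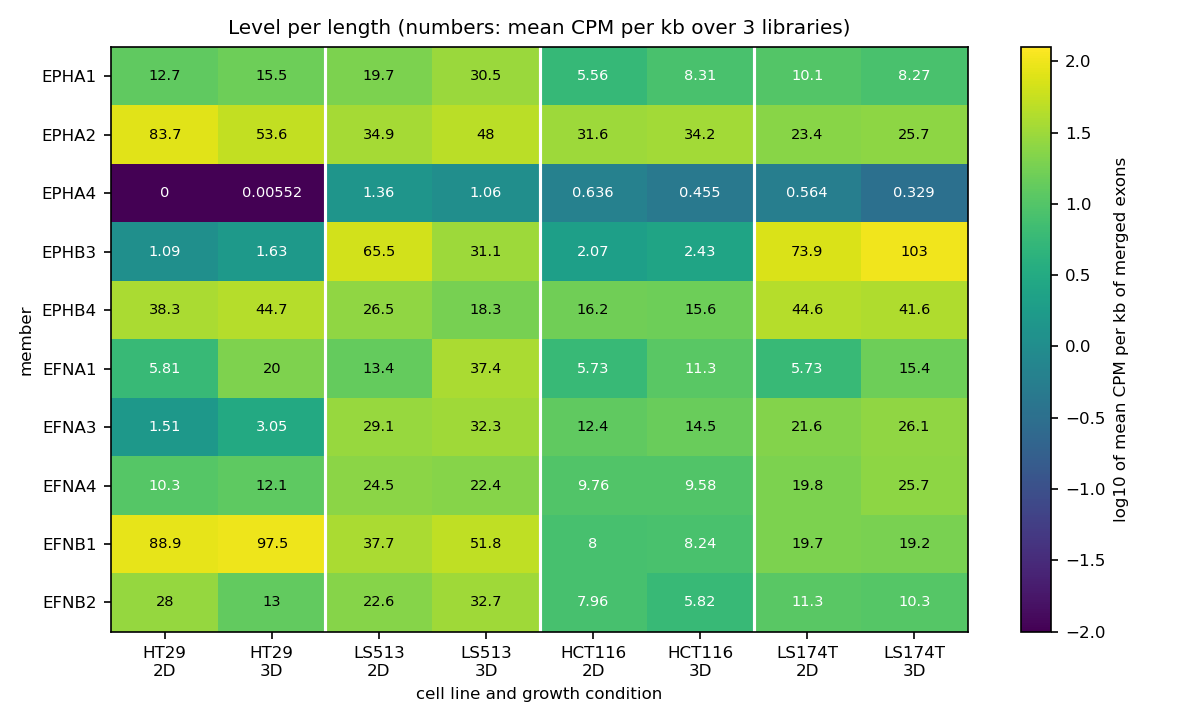
Level per length of each member (rows) in each line and growth condition (columns), as the mean CPM per kb of merged exons over 3 libraries, coloured on a log10 scale. EFNB1 and EPHA2 lead in HT29, EPHB3 leads in LS174T at 73.9 and 103 CPM per kb, and EPHA4 is lowest throughout.

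Summed by class over the 10 members, receptors and ligands were in different proportion in each line. In HT29 the ephrin-B ligands summed to 117 ± 11.1 CPM per kb in 2D (SD, n = 3) and the EphB receptors EPHB3 and EPHB4 to 39.4 ± 1.32 CPM per kb. LS174T had the reverse, with 118 ± 6.65 CPM per kb of these EphB receptors and 31.0 ± 2.54 CPM per kb of ephrin-B ligands in 2D. Not in these sums are EPHB6, at 28.5 CPM per kb in HT29 in 2D, and EPHB2, at 35.8 CPM per kb in LS174T in 2D. In bulk RNA fewer expressing cells and less RNA per cell cannot be told apart, here or in any result below.

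The question of the growth comparison was which members differed between 3D and 2D in each line. A member was called at an adjusted p under 0.05 in edgeR's quasi-likelihood test of all 24 libraries, adjusted by Benjamini-Hochberg across all 19387 genes in the fit. In HT29, 7 of the 10 members were called, 5 higher and 2 lower in 3D, beside 40.7% of all tested genes. In LS513, 7 were called, 5 higher and 2 lower, beside 23.6%. HCT116 had 3 called, 2 higher and 1 lower, beside 29.1%, and LS174T had 3 called, 2 higher and 1 lower, beside 22.2%. The median log2 difference of the members was 0.23 in HT29 (9 members, without EPHA4), 0.30 in LS513, 0.08 in HCT116 and 0.05 in LS174T, whereas the median of all tested genes was 0.00, 0.00, 0.01 and 0.02.

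By direction, 21.1% of all tested genes were called higher and 19.6% lower in 3D in HT29, 13.7% and 9.9% in LS513, 16.8% and 12.3% in HCT116, and 13.1% and 9.15% in LS174T. Groups without overlap were common in these data. In HT29 all 3D libraries were above all 2D libraries for 6 members (27.3% of all tested genes) and below them for 2 (25.6%, or 52.9% in either direction). In LS513 this held for 5 and 3 members (23% and 20%, together 42.9%), in HCT116 for 4 and 2 (22.8% and 17.6%, together 40.4%) and in LS174T for 3 and 2 (20.9% and 17.6%, together 38.5%). With 3 libraries against 3, an exact two-sided permutation test of a single member cannot go below p = 0.1.

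**Figure D2:**
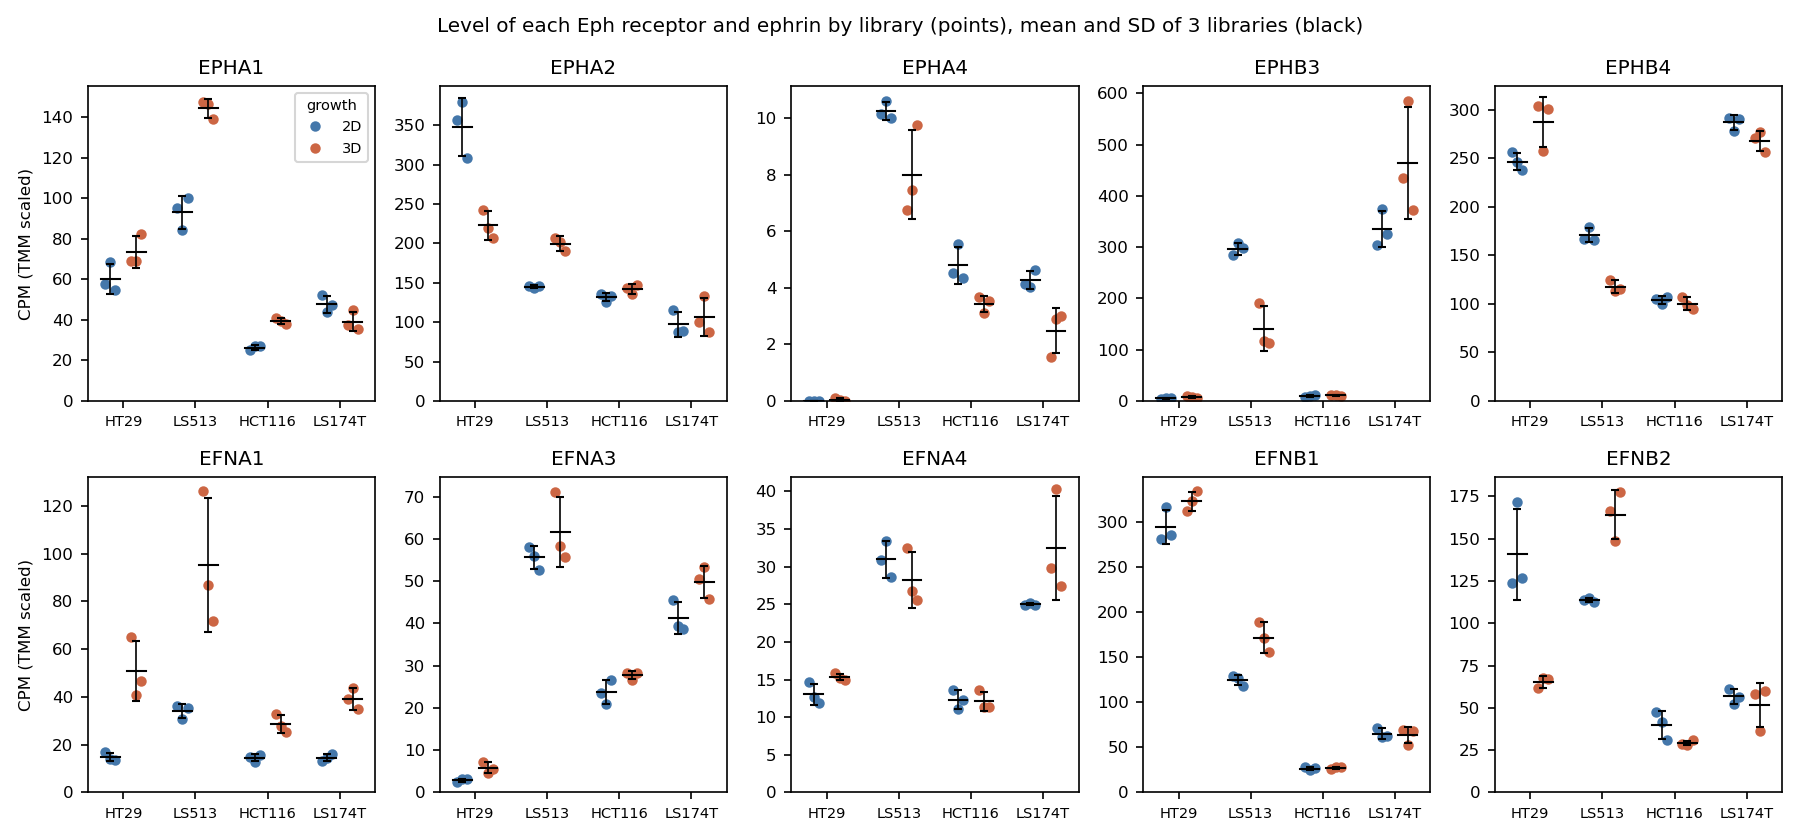
CPM of each member (1 panel each, linear axes from 0) in the 4 lines, with 2D libraries in blue and 3D libraries in orange, and the mean and SD of 3 libraries in black. EFNA1 stands higher in 3D than in 2D in every line, EPHB3 is near the bottom of its axis in HT29 and HCT116, and EPHA4 is at the axis in HT29.

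Among the ligands, EFNA1 (chr1:155127460-155134857, GENCODE 29 on GRCh38), an ephrin-A that binds EPHA2 and other EphA receptors, was higher in 3D in all 4 lines. In HT29 it was at 16.7, 13.9 and 13.6 CPM in 2D and at 65.2, 40.7 and 46.8 CPM in 3D, a log2 difference of 1.78 ± 0.18 (SE, n = 3 and 3, edgeR adjusted p = 1.4e-07). The SE of each log2 difference comes from the fit of all 24 libraries, whose estimate of the spread is shared by the groups. LS513 had 36.1, 30.5 and 35.3 CPM in 2D and 126, 87.1 and 71.9 CPM in 3D (1.48 ± 0.18, edgeR adjusted p = 1.9e-06). In both lines every 3D library lay above every 2D library, and the 3D libraries were spread more widely than the 2D libraries. HCT116 had 14.8, 12.9 and 15.8 CPM in 2D and 32.9, 27.8 and 25.2 CPM in 3D (0.98 ± 0.18, edgeR adjusted p = 3.1e-04). LS174T had 13.3, 14.3 and 16.1 CPM in 2D and 39.0, 43.9 and 34.7 CPM in 3D (1.43 ± 0.18, edgeR adjusted p = 7.2e-06). The groups did not overlap in these lines either. Of all tested genes, 3.14% were called higher in 3D in all 4 lines, and EFNA1 was the only one of the 10 members. Averaged over the lines, its log2 difference was 1.42 ± 0.09 (SE, edgeR adjusted p = 2.5e-11), and the difference between the lines was not called (interaction adjusted p = 0.13). That adjusted p was 0.049 without HT29 3D replicate 3, 0.046 without LS513 3D replicate 1 and 0.0016 when all genes with a count were kept in the fit. Leaving out single libraries kept the difference between 1.60 and 1.97 in HT29, 1.22 and 1.65 in LS513, 0.85 and 1.04 in HCT116 and 1.35 and 1.51 in LS174T.

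Genes of the hypoxia list moved in the same libraries. Of 14 tested genes of that list, 11 were called higher in 3D in HT29, 12 in LS513, 13 in HCT116 and all 14 in LS174T, and the rest were not called. In that order of lines the called share was 78.6%, 85.7%, 92.9% and 100%, beside 40.7%, 23.6%, 29.1% and 22.2% of all tested genes. The median log2 difference of the list was 1.25, 1.51, 1.61 and 1.95. That of EFNA1 was 1.78, 1.48, 0.98 and 1.43, which orders the lines differently. NDRG1, a stress-responsive gene of that list, was at 14.6 ± 1.20 CPM in 2D and 295 ± 97.0 CPM in 3D in HT29 (SD, n = 3), at 40.9 ± 1.36 and 400.2 ± 100.3 CPM in LS513 and at 43.9 ± 8.24 and 901 ± 248 CPM in HCT116. BNIP3, a mitochondrial protein gene, was at 25.5 ± 1.14 and 135 ± 9.07 CPM in LS174T. The part of oxygen supply in the level of EFNA1 was not tested.

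EFNA3 (chr1:155078872-155087538) and EFNA4 (chr1:155063731-155069553), the other ephrin-A ligands among the 10 members, lie beside EFNA1 on the same strand. EFNA3 was at 2.50, 3.06 and 3.07 CPM in 2D and 7.21, 4.67 and 5.59 CPM in 3D in HT29, a log2 difference of 1.03 ± 0.16 (SE, edgeR adjusted p = 2.3e-05). Every 3D library was above every 2D library there. It was not called in the other lines, where the log2 difference was 0.15 ± 0.12 in LS513 (adjusted p = 0.44), 0.23 ± 0.13 in HCT116 (adjusted p = 0.19) and 0.28 ± 0.13 in LS174T (adjusted p = 0.11) in edgeR. The effect differed between the lines (interaction adjusted p = 0.012), and in HT29 it exceeded that in LS513 by 0.88 ± 0.20 (edgeR adjusted p = 0.0044). EFNA3 shares 44.7% of its exonic bases, and EFNA4 14.96%, with a readthrough gene on the same strand, AL691442.1, so the counts of these genes are uncertain. The readthrough gene was counted at 0.515 to 0.863 of the CPM of EFNA3 in every library, and in HT29 its log2 difference was 0.85 ± 0.16 (edgeR adjusted p = 2.0e-04).

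EFNA4 was called in LS174T only, with 24.9, 25.2 and 24.9 CPM in 2D and 29.8, 40.4 and 27.4 CPM in 3D (log2 difference 0.38 ± 0.13, edgeR adjusted p = 0.039). The 3D library of replicate 2 was far above the other two. Without it the log2 difference was 0.20 (edgeR adjusted p = 0.32), and without 2D replicate 1, 2 or 3 the adjusted p was 0.094, 0.090 and 0.10. In HT29, LS513 and HCT116 the log2 differences of EFNA4 were 0.23, -0.13 and -0.03, with edgeR adjusted p-values of 0.19, 0.52 and 0.94.

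EFNB1 (chrX:68828997-68842147), an ephrin-B ligand of the EphB receptors, was higher in 3D in LS513. It was at 129, 127 and 118 CPM in 2D and 189, 171 and 155 CPM in 3D there, with no overlap (log2 difference 0.46 ± 0.10, edgeR adjusted p = 0.0012). HT29 held the most EFNB1, with 282 to 317 CPM in 2D and 313 to 334 CPM in 3D, groups that overlapped (0.13 ± 0.10, edgeR adjusted p = 0.28). In HCT116 and LS174T the log2 differences were 0.04 ± 0.10 and -0.04 ± 0.10 (edgeR adjusted p = 0.81 and 0.83). The difference between the lines was near the threshold (interaction adjusted p = 0.046). It was lost on leaving out any 1 of 19 of the 24 libraries, with adjusted p-values from 0.026 to 0.16 over all 24, the highest without LS513 3D replicate 1.

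EFNB2 (chr13:106489731-106535662), the preferred ligand of EPHB4, moved in opposite directions in HT29 and LS513. In HT29 it was at 124, 172 and 127 CPM in 2D and at 61.4, 67.9 and 66.9 CPM in 3D, a fall of 1.11 ± 0.16 on the log2 scale (SE, edgeR adjusted p = 9.3e-06). In LS513 it was at 114, 115 and 112 CPM in 2D and at 167, 149 and 177 CPM in 3D (log2 difference 0.53 ± 0.15, edgeR adjusted p = 0.014). Neither line had overlap between its growth conditions, and without LS513 3D replicate 1 the rise was 0.51 (edgeR adjusted p = 0.052). In HCT116 EFNB2 was at 47.4, 41.5 and 30.9 CPM in 2D and 28.8, 28.0 and 30.8 CPM in 3D (-0.45 ± 0.16, edgeR adjusted p = 0.035). The lowest 2D library there nearly touched the highest 3D library. Without HCT116 2D replicate 1 the log2 difference was -0.31 (edgeR adjusted p = 0.21), and without 2D replicate 2, 3D replicate 1 or 3D replicate 2 the adjusted p was 0.10, 0.076 and 0.091. LS174T had 61.0, 52.5 and 56.7 CPM in 2D and 58.2, 36.5 and 59.8 CPM in 3D, which overlapped (-0.14 ± 0.16, edgeR adjusted p = 0.56).

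Among the receptors, EPHA1 (chr7:143390289-143408892), an EphA receptor of epithelia, was higher in 3D in 3 lines. LS513 had 95.1, 84.2 and 99.8 CPM in 2D and 148, 147 and 139 CPM in 3D (log2 difference 0.63 ± 0.10, edgeR adjusted p = 9.8e-05). HCT116 had 24.9, 27.1 and 26.9 CPM in 2D and 40.7, 39.3 and 38.0 CPM in 3D (0.58 ± 0.11, edgeR adjusted p = 2.9e-04). In these 2 lines the groups were far apart for their spread. In HT29 the libraries were closer, at 57.5, 68.3 and 54.6 CPM in 2D and 68.8, 69.2 and 82.4 CPM in 3D (0.29 ± 0.10, edgeR adjusted p = 0.031). Without HT29 2D replicate 1, 2D replicate 3 or 3D replicate 4 the adjusted p in HT29 was 0.056, 0.096 and 0.11. LS174T went the other way without being called, at 52.2, 43.9 and 47.2 CPM in 2D and 37.4, 44.7 and 35.3 CPM in 3D (-0.29 ± 0.11, edgeR adjusted p = 0.052). Its adjusted p was 0.021 without LS174T 3D replicate 2 and 0.037 in DESeq2. The effect differed between the lines (interaction adjusted p = 2.3e-04). It was larger than that in LS174T by 0.92 ± 0.15 in LS513 (edgeR adjusted p = 4.5e-04) and by 0.87 ± 0.15 in HCT116 (edgeR adjusted p = 7.0e-04).

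EPHA2 (chr1:16124337-16156087), a receptor of EFNA1 that is abundant in many carcinomas, fell in HT29 and rose in LS513. In HT29 it was at 356, 379.8 and 308 CPM in 2D and at 243, 219 and 207 CPM in 3D, a fall of 0.64 ± 0.12 on the log2 scale (SE, edgeR adjusted p = 2.2e-04). In LS513 it was at 146, 143 and 146 CPM in 2D and at 207, 202 and 189.7 CPM in 3D (log2 difference 0.46 ± 0.12, edgeR adjusted p = 0.0074). The groups did not overlap in either line. HCT116 was between 126 and 148 CPM in all libraries (0.11 ± 0.12, edgeR adjusted p = 0.52) and LS174T between 87.3 and 134 CPM (0.14 ± 0.12, edgeR adjusted p = 0.45). EFNA1, its ligand, was thus called higher in 3D both in the line where EPHA2 fell and in the line where EPHA2 rose.

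EPHA4 (chr2:221418027-221574202), a receptor that binds ephrins of both classes, had counts of 0, 0 and 0 in HT29 in 2D and of 3, 1 and 0 in 3D. No fold was computed there. In LS174T it was at 4.13, 4.04 and 4.62 CPM in 2D and 1.56, 2.88 and 3.01 CPM in 3D (log2 difference -0.78 ± 0.22, edgeR adjusted p = 0.015), and every 3D library was below every 2D library. Without LS174T 2D replicate 3 the adjusted p was 0.059, and without 3D replicate 1 the difference was -0.53 (edgeR adjusted p = 0.082). LS513 had 10.1, 10.6 and 10.01 CPM in 2D and 6.76, 7.46 and 9.77 CPM in 3D (-0.36 ± 0.20, edgeR adjusted p = 0.22). HCT116 had 4.53, 5.55 and 4.33 CPM in 2D and 3.66, 3.10 and 3.54 CPM in 3D (-0.48 ± 0.21, edgeR adjusted p = 0.093). The 3D libraries of both lines lay below their 2D libraries although neither difference was called.

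EPHB3 (chr3:184561784-184582409), a crypt EphB receptor, fell in LS513. It was at 285, 308 and 298 CPM in 2D and at 192, 117 and 113 CPM in 3D there, a fall of 1.08 ± 0.18 on the log2 scale (SE, edgeR adjusted p = 1.1e-04). In LS174T it was at 305, 374 and 326 CPM in 2D and 435, 585 and 373 CPM in 3D (0.47 ± 0.18, edgeR adjusted p = 0.056). The LS174T groups overlapped, and without LS174T 3D replicate 3 the adjusted p was 0.015. HT29, with a far lower level, had 4.15, 5.47 and 5.20 CPM in 2D and 9.23, 6.74 and 6.20 CPM in 3D (0.59 ± 0.22, edgeR adjusted p = 0.032). Without HT29 2D replicate 1 or 3D replicate 1 its adjusted p was 0.10 and 0.17. HCT116 stayed between 8.31 and 11.5 CPM (0.23 ± 0.20, edgeR adjusted p = 0.40). The effect in LS513 was below that in HCT116 by 1.31 ± 0.26 (edgeR adjusted p = 0.0039) and below that in LS174T by 1.55 ± 0.25 (edgeR adjusted p = 4.7e-04) on the log2 scale.

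EPHB4 (chr7:100802565-100827521), the EphB receptor whose preferred ligand is EFNB2, also fell in LS513, from 167, 179.5 and 166 CPM in 2D to 125, 113 and 115 CPM in 3D (log2 difference -0.54 ± 0.08, edgeR adjusted p = 1.9e-05). In HT29 it was at 256, 246 and 237 CPM in 2D and 304, 258 and 301 CPM in 3D (0.22 ± 0.08, edgeR adjusted p = 0.023). The lowest 3D library of HT29 was just above the highest 2D library. Without HT29 2D replicate 3, 3D replicate 1 or 3D replicate 4 the adjusted p was 0.058, 0.066 and 0.051. HCT116 was between 94.6 and 107 CPM and LS174T between 257 and 292 CPM in all libraries, with log2 differences of -0.05 ± 0.08 and -0.10 ± 0.08 (edgeR adjusted p = 0.65 and 0.37).

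**Figure D3:**
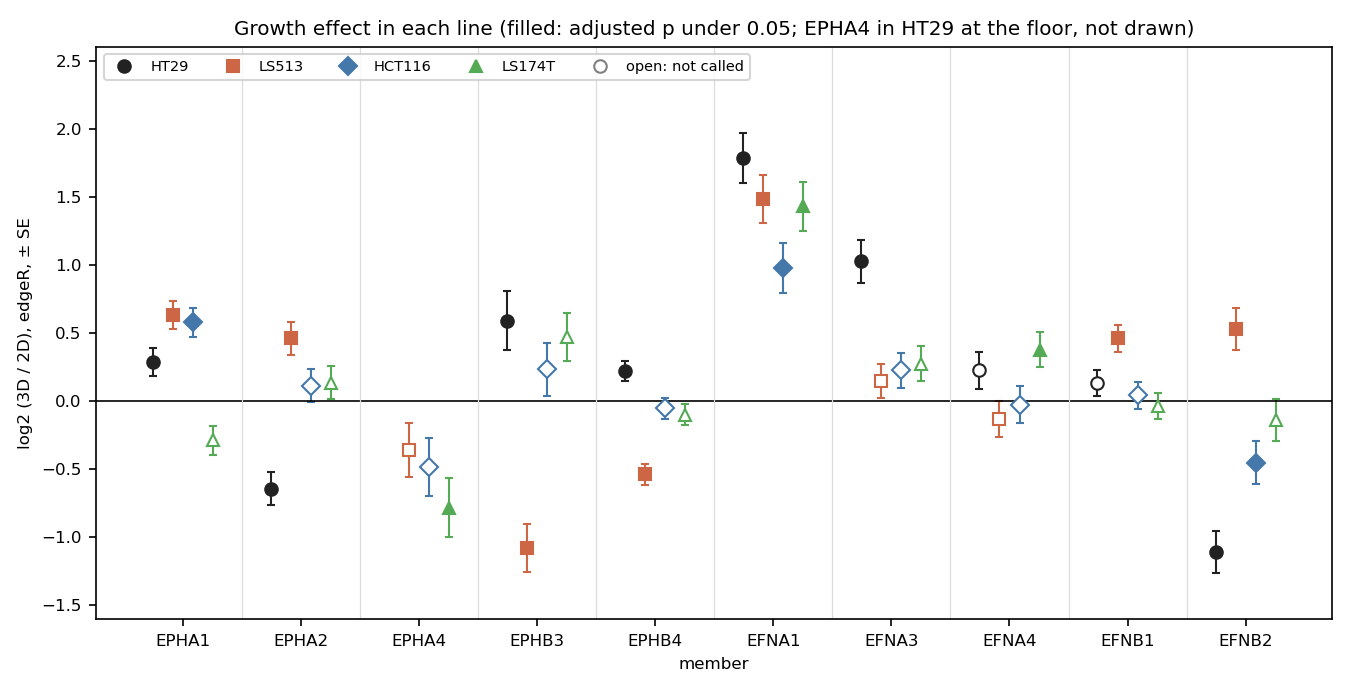
Log2 difference of 3D from 2D for each member in each line, with its SE from edgeR. Filled symbols are called at an adjusted p under 0.05. EFNA1 is called higher in all 4 lines, and EPHA2, EPHB3, EPHB4 and EFNB2 lie on opposite sides of 0 in HT29 and LS513.

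Averaged over the 4 lines, 6 of the 10 members were called, 4 higher (EPHA1, EFNA1, EFNA3, EFNB1) and 2 lower (EPHB4, EFNB2), beside 26.6% of all tested genes higher, 23.9% lower and 50.5% in either direction. An average did not mean a common direction. EPHB4 was called higher in HT29 and lower in LS513, and EFNB2 lower in HT29 and HCT116 and higher in LS513. EFNA3 was called in HT29 alone and EFNB1 in LS513 alone. The test that the effect differed between the lines, with 3 degrees of freedom, called 7 members beside 17.1% of all tested genes. These were EFNB2 (adjusted p = 8.0e-05), EPHB3 (1.4e-04), EPHB4 (1.7e-04), EPHA1 (2.3e-04), EPHA2 (3.7e-04), EFNA3 (0.012) and EFNB1 (0.046) in edgeR. EFNA1, EFNA4 and EPHA4 were not called, with adjusted p-values of 0.13, 0.15 and 0.17. For EPHA4, the average and this test include HT29, where it was at the floor, so they do not describe the lines that express it.

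HT29 and LS513 were compared with libraries of their own. The members EPHA2, EPHB3, EPHB4 and EFNB2 were called in both lines in opposite directions, 4 of the 10 members beside 1.53% of all tested genes. Without HT29 3D replicate 1 the count was 2, since EPHB3 and EPHB4 were no longer called in HT29, and over all single libraries left out it was 2 to 4. The ligand EFNB2 and the receptor EPHA2 were lower in 3D in HT29 and higher in LS513, and the receptors EPHB3 and EPHB4 were higher in HT29 and lower in LS513. The test of the difference itself called 5 members beside 12.1% of all tested genes. The effect in HT29 minus that in LS513 was -1.64 ± 0.22 for EFNB2 (adjusted p = 1.5e-05), -1.10 ± 0.17 for EPHA2 (9.3e-05), 1.67 ± 0.28 for EPHB3 (2.2e-04), 0.76 ± 0.11 for EPHB4 (3.1e-05) and 0.88 ± 0.20 for EFNA3 (0.0044) on the log2 scale in edgeR. The test of the difference between HT29 and LS513 called 5 members without any single library of these lines. In the other pairs of lines the counts were less stable. They were 2 between HT29 and HCT116 (beside 7.76% of all tested genes), 4 between HT29 and LS174T (6.65%), 3 between LS513 and HCT116 (4.34%), 4 between LS513 and LS174T (3.62%) and 1 between HCT116 and LS174T (4.75%). For HT29 and HCT116 the count was 4 without HT29 3D replicate 3, and for HT29 and LS174T it was 2 without LS174T 2D replicate 1. For LS513 and LS174T it was 2 without LS513 2D replicate 2, LS513 3D replicate 2 or LS174T 2D replicate 2.

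**Figure D4:**
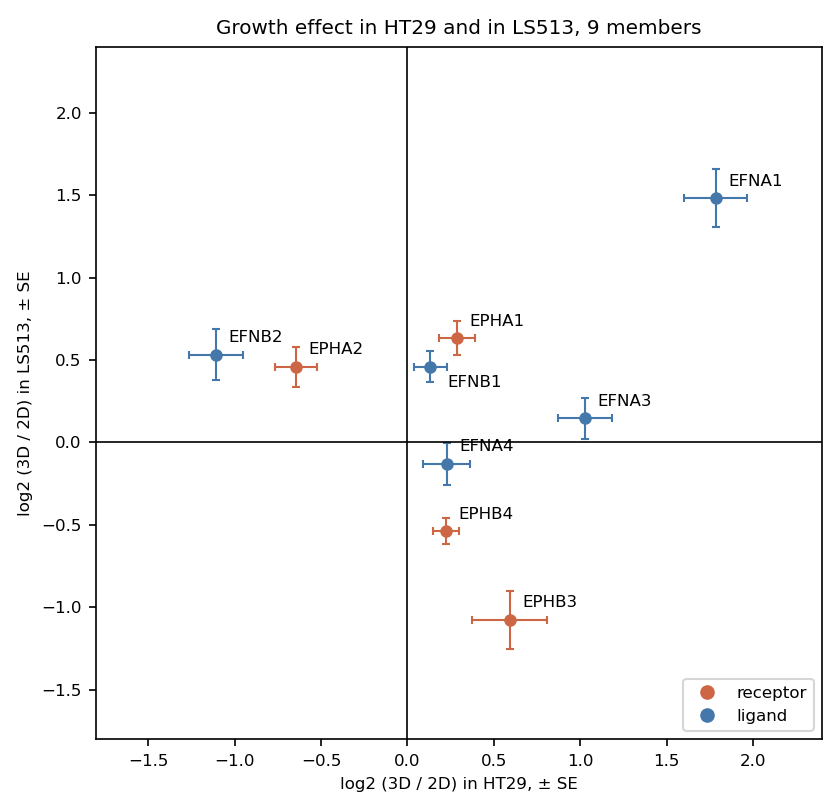
Log2 difference of 3D from 2D in HT29 (x axis) and in LS513 (y axis) with SE from edgeR for 9 members, receptors in orange and ligands in blue. EFNB2 and EPHA2 lie in the upper left, EPHB3 and EPHB4 in the lower right, and EFNA1 in the upper right at 1.78 and 1.48.

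The comparison between lines, over both growth conditions, asked where each member was most abundant. Counting an adjusted p under 0.05 and a log2 difference over 1 in size, 8 members differed between LS513 and HCT116, all 8 higher in LS513, beside 41.5% of all tested genes. HT29 and HCT116 differed in 7 (40.6%), HT29 and LS513 in 6 (33.8%), HT29 and LS174T in 6 (38.4%), LS513 and LS174T in 5, all higher in LS513 (32.8%), and HCT116 and LS174T in 4, all lower in HCT116 (39.8%). The share of members was thus above that of all genes in each pair, except for HCT116 and LS174T, where it was nearly equal. Leaving out single libraries gave 4 to 6 members for HT29 and LS513. It gave 5 to 6 for HT29 and LS174T and for LS513 and LS174T, and left the other counts unchanged. Between HT29 and LS513, EFNA1, EFNA4 and EFNB1 passed the cutoff narrowly, at -1.05, -1.06 and 1.08 on the log2 scale. Each pair with HT29 also counted EPHA4, which was at the floor in HT29 and passed the filter through the other lines. Its call in these pairs therefore adds no support to the share.

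EPHB3 had the widest range of the members that were detected in all lines. Its mean over both growth conditions was 399.8 CPM in LS174T, 219 CPM in LS513, 10.2 CPM in HCT116 and 6.17 CPM in HT29. LS174T exceeded HT29 by 65.2-fold (log2 6.03 ± 0.16, edgeR adjusted p = 4.0e-20) and HCT116 by 38.7-fold (edgeR adjusted p = 1.6e-19). LS174T and LS513 differed by 1.93-fold (edgeR adjusted p = 3.7e-07), an average of close levels in 2D (335 ± 35.2 and 297 ± 11.7 CPM) and distant levels in 3D (465 ± 109 and 140.7 ± 44.1 CPM, SD, n = 3), and HCT116 and HT29 by 1.68-fold (edgeR adjusted p = 6.3e-05). EPHB4 did not share this pattern, since HT29, with 267 CPM, and LS174T, with 277 CPM, did not differ beyond their spread (log2 -0.06 ± 0.05, edgeR adjusted p = 0.34), with LS513 at 144 CPM and HCT116 at 102 CPM. LS174T was the higher of the first 2 in 2D (287 ± 7.55 against 246 ± 9.23 CPM) and HT29 in 3D (287 ± 25.8 against 268 ± 10.1 CPM, SD, n = 3).

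EPHA4 was highest in LS513. In 2D, where no HT29 library had a count, it was at least 83.0-fold higher in LS513, at least 38.9-fold higher in HCT116 and at least 34.5-fold higher in LS174T than the HT29 floor of 3 counts per library. HCT116 and LS174T did not differ from each other (log2 0.32 ± 0.15, edgeR adjusted p = 0.061), although the adjusted p was 0.0496 without LS174T 3D replicate 2, 0.026 without 3D replicate 3 and 0.031 in DESeq2. EPHA2 was ordered HT29, LS513, HCT116 and LS174T, with means of 285, 172, 137 and 102 CPM. Each neighbour differed from the next on average (edgeR adjusted p = 8.7e-08, 0.0019 and 1.1e-04). In 2D the means of EPHA2 in HT29 and LS513 were far apart, at 348 and 145 CPM. In 3D the libraries of these lines overlapped, at 206.6 to 242.5 CPM in HT29 and 189.7 to 207.4 CPM in LS513. EPHA1 was ordered LS513, HT29, LS174T and HCT116, with 119, 66.8, 43.4 and 32.8 CPM, and each neighbour again differed on average (edgeR adjusted p = 8.9e-10, 6.8e-08 and 1.8e-05). In 3D, however, EPHA1 was nearly equal in LS174T and HCT116, at 39.1 ± 4.90 and 39.3 ± 1.38 CPM, against 47.8 ± 4.18 and 26.3 ± 1.18 CPM in 2D (SD, n = 3).

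EFNB1 spanned 11.5-fold between HT29, at 309 CPM, and HCT116, at 26.9 CPM (edgeR adjusted p = 8.5e-22), with LS513 at 148 CPM and LS174T at 64.4 CPM. EFNB2 was at 139 CPM in LS513, 103 CPM in HT29, 54.1 CPM in LS174T and 34.6 CPM in HCT116, and LS513 and HT29 differed by 1.42-fold on average (edgeR adjusted p = 2.4e-04). The direction turned with growth, since EFNB2 was higher in HT29 than in LS513 in 2D (141 ± 26.9 against 114 ± 1.15 CPM) and lower in 3D (65.4 ± 3.46 against 164 ± 14.3 CPM, SD, n = 3). EFNA3 was 14.3-fold higher in LS513, at 58.7 CPM, than in HT29, at 4.35 CPM (edgeR adjusted p = 7.9e-20). Its levels in LS174T and HCT116 were 45.6 and 25.8 CPM. EFNA1 was highest in LS513, at 64.5 CPM. In HT29, LS174T and HCT116 it was at 32.8, 26.9 and 21.6 CPM, and HT29 and HCT116 differed (log2 0.43 ± 0.13, edgeR adjusted p = 0.0041). Neither HT29 and LS174T (edgeR adjusted p = 0.16) nor LS174T and HCT116 (edgeR adjusted p = 0.11) differed beyond their spread. Without HT29 3D replicate 3 the first of these had an adjusted p of 0.040. The second had one of 0.045 without HCT116 3D replicate 1, 0.013 with all genes of at least 1 count and 0.024 in a fit of the 2 lines alone. In 2D the 3 lines had nearly equal means of EFNA1, at 14.7 ± 1.73, 14.55 ± 1.39 and 14.5 ± 1.48 CPM (SD, n = 3). For EFNA4, LS513 and LS174T, at 29.6 and 28.8 CPM, did not differ (edgeR adjusted p = 0.63) and were both above HT29 and HCT116, at 14.2 and 12.2 CPM.

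The genes whose log2 CPM followed a member most closely over the 24 libraries are given as a description, since the libraries share lines. EPHB3 was nearest to MISP3 and MYCN (Pearson r of 0.991 and 0.986) and EFNB1 to TRIM29 and TANGO2 (0.987 and 0.983). EFNA1 was nearest to FAM162A, a mitochondrial protein gene, and TOM1 (0.948 and 0.939), and EPHA1 to MISP and NIPAL2 (0.969 and 0.966). EPHA4 was nearest to STEAP3 and ZFP37 (0.984 and 0.982), EPHA2 to EIF2S2 and CD55 (0.958 and 0.957), and EPHB4 to TRMT2B and ZNF816-ZNF321P (0.959 and 0.956). EFNA3 was nearest to AL691442.1, with which it shares exonic bases, and GAS6 (0.998 and 0.988), EFNA4 to KLK3 and IL32 (0.965 and 0.962), and EFNB2 to LINC00941 and GSK3B (0.957 and 0.941). Among the members, EPHA4 and EFNA3 (0.946) and EPHB3 and EFNA4 (0.935) were nearest to each other, and EPHA2 and EFNA3 were the farthest apart (-0.739). The correlations of EPHA4, also that with EFNA3, include the HT29 libraries, where it was at the floor. They depend on that contrast of HT29 with the other lines.

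Of the other 12 Eph and ephrin genes, 7 were tested. EPHB2, the other crypt EphB receptor, was at 421 to 461 CPM in LS174T and 363 to 385 CPM in LS513 in 2D, against 1.42 to 2.24 CPM in HT29. In HT29 it was called higher in 3D, at 1.58, 2.24 and 1.42 CPM in 2D and 5.10, 2.04 and 2.97 CPM in 3D, although the libraries overlapped (log2 difference 0.94 ± 0.23, edgeR adjusted p = 0.0023). In LS513 it fell from 363, 385 and 372 CPM to 267, 246 and 256 CPM (log2 difference -0.54 ± 0.15, edgeR adjusted p = 0.011). EPHB6, a receptor without kinase activity, was highest in HT29, where it fell from 153, 169 and 133 CPM to 68.1, 70.2 and 74.7 CPM (-1.09 ± 0.11, edgeR adjusted p = 6.9e-08). It was also called lower in LS513 and LS174T and called higher in HCT116. EFNA2 was called higher in LS513 (1.32 ± 0.22, edgeR adjusted p = 1.0e-04), EPHA10 higher in HT29 (0.82 ± 0.23, edgeR adjusted p = 0.0066) and EFNA5 lower in HT29 (-0.46 ± 0.16, edgeR adjusted p = 0.022). EPHB1 was detected mainly in LS174T, at 4.96 to 7.37 CPM, and EPHA7 only in HCT116, at 0.815 to 1.46 CPM. EPHA3, EPHA5, EPHA6, EPHA8 and EFNB3 had at most 2, 1, 1, 7 and 7 counts in a library.

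Genes acting next to the receptors were counted by list. Of 34 tested genes of proximal signaling, 6 were called higher and 12 lower in 3D in HT29, 8 and 1 in LS513, 5 and 4 in HCT116, and 2 and 4 in LS174T. The called share was 52.9% in HT29, 26.5% both in LS513 and in HCT116, and 17.6% in LS174T, beside 40.7%, 23.6%, 29.1% and 22.2% of all tested genes, so it was near or under the background outside HT29. PIK3R1, a regulatory subunit of phosphatidylinositol 3-kinase, was lower in HT29 (log2 -0.89 ± 0.18, edgeR adjusted p = 4.4e-04) and in LS513 (-0.58 ± 0.18, edgeR adjusted p = 0.022). KALRN, a guanine nucleotide exchange factor, was higher in HT29 (0.87 ± 0.13, edgeR adjusted p = 1.3e-05), and SDCBP, or syntenin, a PDZ protein that binds ephrin-B tails, was higher in LS513 (0.70 ± 0.10, edgeR adjusted p = 2.3e-05) and in HCT116 (0.81 ± 0.10, edgeR adjusted p = 3.7e-06). ROCK2, a kinase that acts on the actomyosin cytoskeleton, was lower in HCT116, from 110.1 ± 28.6 CPM in 2D to 60.2 ± 8.54 CPM in 3D (SD, n = 3). In LS174T the adaptor NCK2 was higher (0.44 ± 0.10) and the ubiquitin ligase CBL lower (-0.76 ± 0.25), with edgeR adjusted p-values of 0.0026 and 0.032. The median log2 difference of this list was -0.15, 0.06, -0.03 and -0.05 in HT29, LS513, HCT116 and LS174T.

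Of 12 genes of shedding and clearance, which hold proteases that cut ephrins or Eph receptors and phosphatases that switch the receptors off, 7 were called higher and 3 lower in HT29, 6 higher in LS513, and 6 higher and 1 lower in HCT116. In LS174T edgeR called 0 of the 12, with 3 at an unadjusted p under 0.05 and 1 called by DESeq2. The called share was 83.3%, 50% and 58.3% in HT29, LS513 and HCT116, beside the same background. PTPRO, a phosphatase known to act on Eph receptors, was at 15.005 ± 3.85 CPM in 2D and 42.9 ± 3.24 CPM in 3D in HT29 (SD, n = 3, log2 difference 1.52 ± 0.22 SE, edgeR adjusted p = 1.0e-05). PTPN1 was lower in HT29 (-0.49 ± 0.08, edgeR adjusted p = 3.0e-05) and in HCT116 (-0.30 ± 0.08, edgeR adjusted p = 0.0050). The protease genes RHBDL2 in LS513 (1.44 ± 0.23, edgeR adjusted p = 1.1e-04) and MMP14 in HCT116 (0.86 ± 0.16, edgeR adjusted p = 2.5e-04) were higher. The list's median log2 difference was 0.48, 0.24, 0.35 and 0.09 in the order HT29, LS513, HCT116 and LS174T.

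Crypt Wnt targets were counted because EPHB3 and EPHB2 belong to that programme in the intestine. In LS513, where both receptors fell, 7 of the 15 genes were called lower and 1 higher, with a median log2 difference of -0.30. LGR5, a marker of crypt stem cells, fell from 13.04 ± 0.126 CPM in 2D to 2.77 ± 0.443 CPM in 3D there (SD, n = 3, -2.23 ± 0.25 SE, edgeR adjusted p = 1.3e-06), and TNFRSF19 rose (1.02 ± 0.24, edgeR adjusted p = 0.0026). The list was split in the other lines, with 4 higher and 4 lower in HT29, 1 and 1 in HCT116, and 3 and 4 in LS174T. Its median log2 difference was 0.05, -0.02 and -0.09 in that order. The called share of the list was 53.3% in HT29 and in LS513, 13.3% in HCT116 and 46.7% in LS174T, beside the same background. AXIN2, a feedback inhibitor of Wnt signaling, was lower in HT29 (-0.67 ± 0.12, edgeR adjusted p = 1.0e-04) and in HCT116 (-0.57 ± 0.12, edgeR adjusted p = 0.0013), whereas ASCL2, a transcription factor of crypt stem cells, was higher in HT29 (1.57 ± 0.22, edgeR adjusted p = 1.1e-05). NOTUM was higher in HCT116 (1.28 ± 0.23), MYC higher in LS174T (0.68 ± 0.13) and TCF7 lower in LS174T (-0.38 ± 0.09), with edgeR adjusted p-values of 2.7e-04, 9.7e-04 and 0.0055. The part of Wnt signaling in the levels of EPHB3 and EPHB2 was not tested.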

How the data were processed

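Poly(A) RNA was sequenced with a stranded TruSeq kit in 24 libraries, 3 for each of 4 lines and 2 growth conditions, at 8 technical replicates per library and 7 for 1 HT29 3D library. The authors deposited raw gene counts for each technical replicate, without normalization. The submitters' processing notes name bcl2fastq 2.18.0.12, Trim Galore 0.4.1, STAR, HTSeq 0.5.3 and build hg19, whereas the methods name Ensembl 91, and 99.5% of the identifiers are in GENCODE 29, whose GRCh38 positions are given. How reads of overlapping genes were counted is not given in the sources used here.

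Technical replicates, whose median chi-square per degree of freedom was 0.905 to 0.934 (0.907 from counting error), were summed. Genes were filtered with filterByExpr, scaled by TMM and tested with the robust quasi-likelihood fit of edgeR 4.0.16 in R 4.3.3, with 8 group coefficients, two-sided, and Benjamini-Hochberg adjustment. CPM use TMM-scaled library sizes of the tested genes. When 200 genes were changed in simulated HT29 counts, the test called 198 of them, with 12 false calls among 19387 genes. The changed genes were of higher mean count, and the folds were 0.25, 0.5, 2 or 4. All genes had the same dispersion of 0.0175 there, and the groups had equal means before the change. Smaller changes, such as those of most members, were not simulated. Alternatives were DESeq2 1.42.0 and its size factors, no filter beyond 1 count, the replicate number as a block, fits of the compared lines only, other cutoffs, without technical replicate d, and leaving out each library.

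The members and the gene lists were chosen with earlier results of these data known, and were described without tests over a list. Beside the members, the named genes are the other family genes, the gene with the smallest p in each direction of each list in each line, and the 2 genes most correlated with each member. Floors of 3 counts cover counting error only, whereas SD hold the spread between the libraries of a group. SE come from the edgeR fit, with an estimate of the spread shared by the 8 groups. They do not measure the spread of the compared libraries alone. Sequences are from RefSeq, with 11 entries for the 10 members.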

Additional observations from a re-analysis of the deposited data

Results flagged for a closer look

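The 7 members whose growth effect differed between the 4 lines in the interaction test of edgeR were looked at again. Their adjusted p-values were 8.0e-05 for EFNB2, 1.4e-04 for EPHB3, 1.7e-04 for EPHB4, 2.3e-04 for EPHA1, 3.7e-04 for EPHA2, 0.012 for EFNA3 and 0.046 for EFNB1. EFNB2 and EPHA2 were lower in 3D in HT29 and higher in LS513, and EPHB3 and EPHB4 the reverse. EPHA1 was higher in 3D in HT29, LS513 and HCT116 and at -0.29 on the log2 scale in LS174T. EFNA3 was called in HT29 and EFNB1 in LS513 alone. Groups of 3 libraries are too small for the test of a single outlying library.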

How the results depend on the processing

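The number of members called for growth moved with the fold change cutoffs of the study's methods (log2 under -0.5 or over 1.5), to 3 for HT29, 2 for LS513, 0 for HCT116 in edgeR (no member there passed these cutoffs at any p) and 1 for LS174T. For LS174T it was also 1 when that line alone was fitted, and it ranged from 1 to 4 when single libraries were left out, the lowest without LS174T 2D replicate 3. Without a fold change cutoff 10 members differed between HT29 and LS513, 9 between LS513 and LS174T and 8 between HCT116 and LS174T. The counts in this section stand without the share of all tested genes at the same setting. They compare settings only and are not a result about the members. DESeq2, its size factors, a filter of 1 count and leaving out technical replicate d kept the counts for growth in each line, the average, the interaction and the line pairs within 1.5 times. Growth effects that differed between HT29 and HCT116 numbered 4 with DESeq2 or a filter of 1 count.

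The deviations of libraries of equal replicate number from their group means had correlations of -0.146 to 0.0938. Of 12 3D libraries, 3 were closest to the 2D library of their number, and HT29 3D replicate 4 had none of its number to match. Groups of 3 libraries are too small to settle whether equal numbers mark paired libraries. In HT29 the 2D libraries are numbered 1, 2 and 3 and the 3D libraries 1, 3 and 4. With the block, HT29 2D replicate 2 and HT29 3D replicate 4 had no partner and added nothing to its growth effect. What the block changed for HT29 and its pairs cannot be told apart from the loss of these libraries. With the replicate block, members called numbered 5 (HT29), 7 (LS513), 3 (HCT116) and 2 (LS174T), and the interaction called 5. EPHA1 and EPHB4 in HT29 (adjusted p = 0.12 and 0.22), EFNA4 in LS174T (0.065) and the interactions of EFNA3 and EFNB1 (0.081 and 0.083) were not called with the block. The block also took the growth effects that differed from 2 to 0 between HT29 and HCT116, from 4 to 0 between HT29 and LS174T (adjusted p of the lost calls 0.068 to 0.12) and from 4 to 2 between LS513 and LS174T, and left 5 between HT29 and LS513. Fitting only the 2 lines left 1 between HT29 and LS174T. With a filter of 1 count EPHB3 was called in LS174T (7.4e-04), and EPHB4 in HT29 (0.083), its average (0.15) and EFNA4 in LS174T (0.063) were not. Fitting a line alone lost EPHA4 and EFNA4 in LS174T (0.078 and 0.15) and gained EPHA4 in HCT116 (0.049). Differences between growth effects that were lost without some single library were those of EPHA1 (0.061) and EFNA3 (0.065 to 0.081) between HT29 and LS174T, EPHB4 between LS513 and HCT116 (0.052) or LS174T (0.063 to 0.080), and EFNB1 between LS513 and LS174T (0.051 to 0.17).

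When single libraries were left out, members that were not called changed sign, with log2 differences of -0.14 to 0.047 for EFNA4 in HCT116, -0.0036 to 0.080 for EFNB1 in HCT116, -0.10 to 0.087 for EFNB1 in LS174T, -0.26 to 0.066 for EFNB2 in LS174T and -0.046 to 0.27 for EPHA2 in LS174T. The same held for the average over the lines of EPHA2 (-0.026 to 0.052) and EPHB3 (-0.013 to 0.10) and for EPHB4 between HT29 and LS174T (-0.074 to 0.012). The causes were not tested. Depth limits EPHA4 in HT29, where at most 3 counts were seen.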
